A study of Mus musculus with 288 samples.

Results

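The cells described here are mouse embryonic stem cells of the line E14 at 48 h after their release from 2i, labelled D2. They were chosen by the filter of the study, with over 200000 reads, over 2000 genes with a read and a mitochondrial share under 0.15. The study prints this last limit as 0.15%, and it was read here as a fraction. Of the 96 wells with this label 93 passed, of 288 wells in all. The 3 other wells held 1710 genes (C05), 793 reads (D11) and 828 genes (E08). Strain 129/Ola is given for the line, which had been kept in N2B27 with LIF, the GSK3 inhibitor CHIR99021 and the MEK inhibitor PD0325901 (together 2i), and was then moved to serum with LIF. Single cells were sorted by flow cytometry into 96-well plates and processed by scNMT-seq, which sequences RNA and DNA separately from every cell. Only the polyadenylated RNA was analysed here, in reads counted per gene. The 93 cells carry labels of 1 line, time and set of 96 wells, with no separate cultures named, so they were taken as 1 culture on 1 plate, and time, culture, plate and library cannot be told apart. A cell is no replicate of the condition, and no test between groups was run.

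Embryonic stem cells in 2i are held in the naive state, with low DNA methylation, because the MEK-ERK pathway is blocked and Wnt signalling is mimicked. On transfer to serum, ERK signalling returns, bone morphogenetic proteins (BMPs) in serum induce the Id genes, and the de novo methyltransferases Dnmt3a and Dnmt3b, with their cofactor Dnmt3l, write methylation again. Cultures in serum are known to be heterogeneous, with single cells moving between higher and lower levels of factors such as Nanog. The values below give how unequal cells at 48 h were, and in which genes.

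Sequencing depth of the 93 cells ran from 491549 to 9812323 reads on genes, with a median of 2162090. Between 2209 and 7971 genes had a read, with a median of 4744. In draws of 200000 reads from each cell (thinning), in which 1 read is worth 5 CPM (reads of a gene over all reads of the cell, brought to one total), between 1695 and 6151 genes had a read, with a median of 3946. Mitochondrial transcripts took between 0.386% and 2.78% of reads in 92 cells and 12 of 1682543 reads in well A09. The reads were concentrated on few genes, with a mean over cells of 7.41% on the 10 genes with most reads, 28.9% on 100 genes and 79.3% on 1000 genes. Reads on 2 rRNA-like loci without an established symbol made up 0.0174% to 6.60% of a cell, with a median of 1.37%.

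Detected genes went with the position on the plate. In plate columns 1 to 6 (47 cells) the median was 3710 genes after thinning, and in columns 7 to 12 (46 cells) it was 4331.5. Spearman's rho of detected genes with the column number was 0.45 over the 93 cells, and 0.34 without wells C12 to H12. These 6 wells were high as a set, with overlap at their lower end. They held 4891 to 6151 genes after thinning, with a median of 5579, against 1695 to 5055 in the other 87 cells, with a median of 3890. Of 447 genes that were read in at least 70% of the cells at 0 h (D0) and in under 10% of those at 48 h, the 6 wells had a read of 10.1% to 23.5%, and the other 87 of 1.12% to 10.96%. Hprt, the purine salvage enzyme, had a read in 9 of 90 cells at 0 h, in 48 of 50 at 24 h (D1) and in 7 of 93 at 48 h. After thinning it was read in 5 of the 6 wells at up to 75 CPM and in 2 of the other 87 cells at up to 15 CPM. Whether these wells hold RNA of other libraries was not tested. Without them, 7 of the 12 cells at 1000 CPM or more of Dnmt3b and 12 of the 14 of Pim2 remained, and some of the main correlations are given without them.

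**Figure D1:**
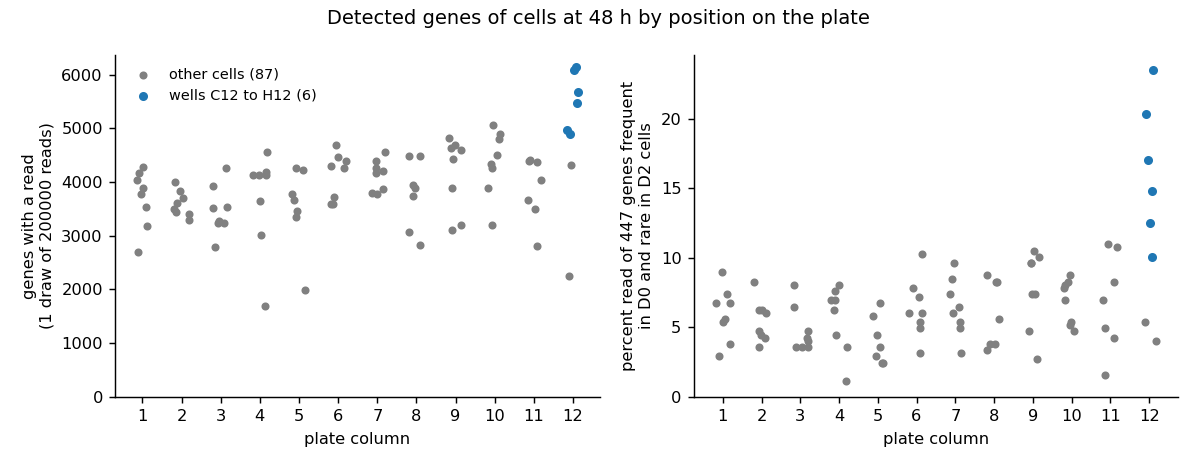
Genes with a read in 1 draw of 200000 reads (left, a count) and the percent read of 447 genes frequent at 0 h and rare at 48 h (right), in each of the 93 cells at 48 h by plate column. Each point is 1 cell, and the 6 wells C12 to H12 (blue) reach 4891 to 6151 genes and 10.1% to 23.5%, against at most 5055 genes and 10.96% in the other 87 (grey).

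Most cells carried transcripts of the genes proposed to mark 48 h, at very unequal levels. All 4 genes lie on GRCm38, Dnmt3b at chr2:153649450-153687730, its catalytically inactive cofactor Dnmt3l at chr10:78041947-78063622, Id1 at chr2:152736251-152737410 and the serine/threonine kinase Pim2 at chrX:7878262-7883432. Dnmt3l had a read in 89 of 93 cells (95.7%, exact 95% interval 89.4% to 98.8%), with a median of 374 CPM and a highest value of 2775 CPM. Dnmt3b had a read in 76 cells (81.7%, 72.4% to 88.98%), from 0 to 4115 CPM with a median of 148 CPM. Its median was far below its mean of 464 ± 818 CPM (SD between cells, n = 93), since 12 cells held 1000 CPM or more after thinning and 23 cells had no read. Id1, which encodes an inhibitor of basic helix-loop-helix factors, had a read in 77 cells (82.8%, 73.6% to 89.8%), from 0 to 1334 CPM with a median of 118 CPM. Pim2 had a read in 54 cells (58.1%, 47.4% to 68.2%), with a median of 1.11 CPM, a highest value of 4772 CPM and 14 cells at 1000 CPM or more after thinning. Pim2 was therefore the least evenly spread of the 4, high in a minority of cells and at or near 0 in most.

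Cells at 0 h and at 24 h were used to check the label by these 4 genes. Mean Dnmt3b was 114 ± 109 CPM at 0 h (SD between cells, 90 cells), 367 ± 307 CPM at 24 h (50 cells) and 464 ± 818 CPM at 48 h. Mean Pim2 was 6.20 ± 15.9, 175 ± 164 and 452 ± 1019 CPM in the same order. The mean rose over the 3 labels for both, while their median fell from 24 h to 48 h, for Dnmt3b from 319 to 148 CPM and for Pim2 from 137 to 1.11 CPM. Mean Id1 was 3.54 ± 9.09, 177 ± 300 and 249 ± 321 CPM, and mean Dnmt3l was 25.4 ± 48.9, 748 ± 455 and 535 ± 488 CPM. Dnmt3l was thus highest at 24 h of the 3 labels, within a spread between cells as wide as the difference. Each label is 1 plate, and depth, detected genes and the share of cells with an Hprt read (10.0%, 96.0% and 7.53% in the same order) differ between them. Time cannot be told apart from these differences.

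The 6 wells C12 to H12 carried more Dnmt3b, with a median of 1232.5 CPM after thinning against 120 CPM in the other 87 cells, and more Pim2, with 617.5 against 0 CPM. Id1 had no such direction, with a median of 25 against 150 CPM but a mean of 329 against 249 CPM after thinning, and with 890 and 1035 CPM in 2 of the 6 wells. Without them, Dnmt3b was read in 80.5% of the 87 cells and averaged 411 CPM, and Pim2 was read in 55.2% and averaged 431 CPM.

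**Figure D2:**
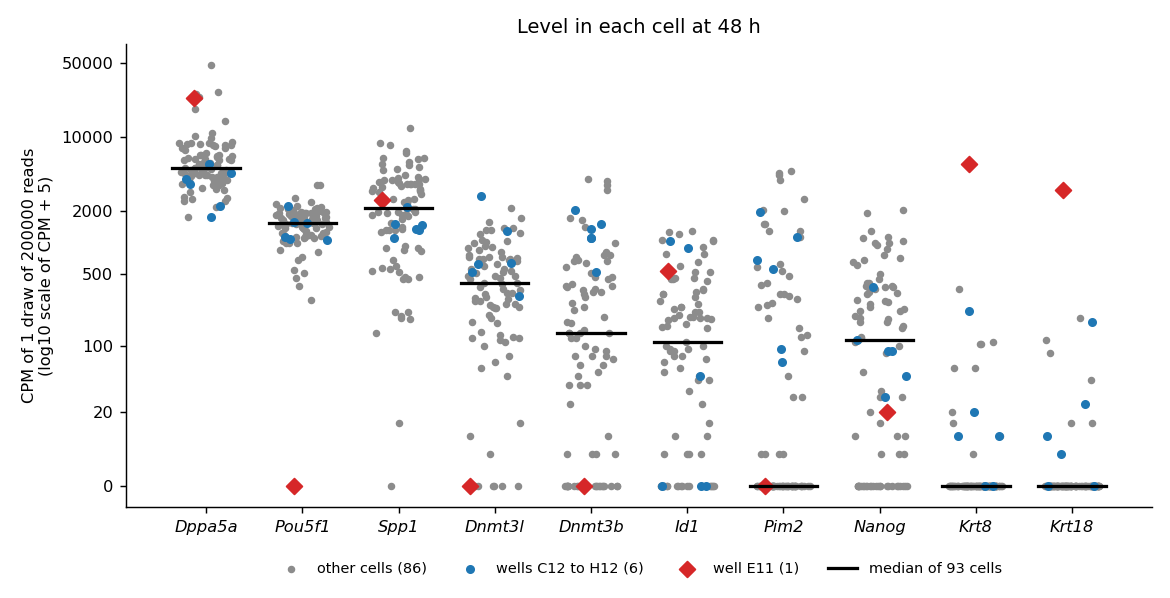
CPM of 10 genes in each of the 93 cells at 48 h, in 1 draw of 200000 reads, on a log10 scale of CPM + 5. Grey points are single cells, blue points wells C12 to H12, red diamonds well E11 and black bars the median of 93 cells. Dppa5a lies above 1000 CPM in all cells, Pim2 is spread from 0 to 4780 CPM, and Krt8 and Krt18 reach 5600 and 3160 CPM in well E11.

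Of the 12 core pluripotency genes listed, 6 were read in 90% of the 93 cells or more, and the other 6 in 47 to 82 cells. Pou5f1 (Oct4), the factor that defines the pluripotent state, had a read in 92 cells at a mean of 1524 ± 559 CPM and a median of 1564 CPM. After thinning it ranged from 285 to 3505 CPM over these 92 cells. Its squared coefficient of variation was 0.660 times the running median of genes at the same mean, so it was steadier than a typical gene of its level. Utf1, a chromatin factor of pluripotent cells, had a read in 92 cells with a median of 245 CPM. Tdgf1, the Nodal co-receptor, had a read in 90 cells with a median of 475 CPM. Sox2, the partner of Pou5f1, was read in 61 cells at up to 172 CPM, and was thus among the core genes seen less widely.

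Naive factors were more uneven, with 1 of the 15 listed read in 90% of cells or more and the other 14 in 11 to 76 cells. Zfp42 (Rex1), a marker of the naive state, had a read in all 93 cells, from 11.6 to 4465 CPM with a median of 1190 CPM. Nanog had a read in 71 cells, with a median of 120 CPM and a highest value of 2019 CPM. Esrrb also had a read in 71 cells, with a median of 24.0 CPM and a highest value of 2087 CPM. Klf4 was read in 19 cells at up to 118 CPM. Zfp42 was thus in reach of every cell, and Nanog and Esrrb were absent from the reads of 22 cells each.

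Of the 12 genes listed for the later, formative and primed state, which include Dnmt3b and Dnmt3l, 4 reached a mean of 20 CPM. After thinning, 90 cells had a read of any of the 12, at a median sum of 880 CPM over all cells. Otx2, a homeodomain factor on this list, had a read in 31 cells at up to 543 CPM, and Fgf5 in 2 cells. Dnmt3a had a read in 59 cells with a median of 32.2 CPM. Lists of other lineages were nearly empty, and none of their genes reached a mean of 20 CPM. After thinning, any read of the 6 primitive endoderm genes occurred in 6 cells, at a sum of at most 90 CPM and with 2 genes at 0 throughout. Mesoderm genes had a read in 3 cells at a sum of at most 5 CPM, neurectoderm genes in 6 cells at up to 75 CPM and fibroblast genes in 4 cells at up to 85 CPM. No read fell on the 10 genes of the 2-cell-like list in 93 cells, which allows a share of up to 3.23% of cells with a read. The 6 trophectoderm genes had a read in 25 cells, at a sum of at most 1275 CPM, reached in well E11. Of the 93 cells, 92 thus carried Pou5f1 reads, and E11 was the one without.

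Per length of exon, the most abundant transcript was Dppa5a (chr9:78367052-78368177), which encodes a small KH-domain protein of pluripotent cells. On this scale (reads per kilobase of exon, brought to the same total as CPM in each cell and named length-scaled CPM), Dppa5a ranged from 7756 to 139148 with a median of 22210 and a mean of 27832 ± 20817. That is 0.776% to 13.9% of the per-length total of a cell, with a median of 2.22%. Its highest cell was A04, the cell with the fewest reads, at 48015 CPM after thinning, followed by D04 at 26720 CPM and B12 at 25345 CPM. The squared coefficient of variation of Dppa5a was 4.38 times the running median, and 4.67 times without wells B05, B12 and D04.

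Among coding genes outside the mitochondrial genome and the ribosomal protein genes, Dppa5a was followed by the cytoskeletal gene Actb at 7672 ± 2559 length-scaled CPM and the elongation factor Eef1a1 at 6805 ± 2440. The peroxiredoxin Prdx1 was at 5169 ± 1757 and the variant histone H2afz at 4537 ± 1475. Spp1 (osteopontin), a secreted phosphoprotein, was at 4285 ± 3419 on the same scale, with 1 cell at 0. It ranged from 0 to 12493 CPM with a median of 2119 CPM. The other 9 of the first 15 in this class were the chaperones Hsp90ab1 and Hsp90aa1, the translation genes Eif5a and Eef1g, the nucleic acid binding protein Cnbp, the nucleolar protein Npm1, the ADP/ATP carrier Slc25a5, lactate dehydrogenase Ldha and the respiratory chain subunit Cox4i1, at means from 2672 (Cox4i1) to 4276 (Hsp90ab1) length-scaled CPM.

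The 90 coding genes with symbols of ribosomal proteins together took 6.89% to 17.99% of the per-length total of a cell, with a median of 10.7%, led by Rps4x at 5491 ± 1682 and Rpl4 at 4941 ± 1658 length-scaled CPM. The 13 mitochondrial protein genes took a median of 2.65% and were very unequal among themselves. On the per-length scale the complex I subunit mt-Nd1 was at 10120 ± 5614 length-scaled CPM, the complex IV subunit mt-Co1 at 7239 ± 3725 and mt-Cytb at 6146 ± 5158, whereas the complex IV subunits mt-Co2 and mt-Co3 were at means of 13.1 and 5.01. The mitochondrial share is therefore a share of a few genes. How reads that match more than 1 place were counted is not given in the sources used here.

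Spread between cells was taken as the squared coefficient of variation after thinning, divided by the running median of the genes nearest in mean, over 6243 genes with a mean of at least 20 CPM. A value of 1 is thus the spread of a typical gene of that level. The widest genes were those with most of their reads in 1 cell. Cbl, an E3 ubiquitin ligase of receptor tyrosine kinases, had 24.6 times the typical spread, with 84.6% of its thinned reads in well B12 at 11715 CPM and the next cell at 1445 CPM. Exd2, a nuclease, had 22.99 times, with 83.4% in well B05 at 10600 CPM. Krt8, an epithelial keratin, had 12.4 times, with 83.5% in well E11.

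Of the 15 widest named genes, 14 had most of their reads in 1 cell, spread over several cells, with E11 the highest for 1. The others of the 14 were Nbeal1, Dennd4b, Eif5a2, Arhgap35, Alg2, Zfp788, Ppp4r4, Ints6, Taok2, Fam135a and Enpp2. Over all 6243 genes the median share of reads in the highest cell was 13.8%. The files count reads and not molecules, so many transcripts and few transcripts amplified further cannot be told apart.

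Of the 15, 5 were highest in wells B05, B12 or D04, the 3 cells with the fewest genes after thinning (1981, 2243 and 1695, against at least 2689 in the others), which also held 71, 89 and 104 genes at over 2 times any other cell. Without these 3 wells, a choice made after the values were seen, 10 of the 15 stayed among the first 15, Nbeal1 led at 15.1 times, and Cbl and Exd2 stood at 3.41 and 2.89 times. The place of Cbl and Exd2 thus rested on these wells.

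Of the 15, the one without most of its reads in 1 cell was Prps1 (chrX:140456613-140476140), phosphoribosyl pyrophosphate synthetase, the first step of nucleotide synthesis. It had 13.9 times the typical spread with a read in 77 cells after thinning, a median of 355 CPM, 26 cells at 1000 CPM or more, and highest values of 15080 (well B12) and 8640 CPM. Without wells B05, B12 and D04 it had 7.01 times the typical spread. When only genes read in at least 50% of cells were ranked, a choice made after the values were seen, Prps1 led and was followed by Rrm1, the large subunit of ribonucleotide reductase, at 10.8 times (11.7 without those wells). Rrm1 had a median of 410 CPM after thinning, a highest value of 11475 CPM and 23 cells at 1000 CPM or more. Next were Ahctf1, a nuclear pore protein, at 10.7 times, with 20 cells at 1000 CPM or more and a median of 5 CPM, and Mtpn (myotrophin) at 10.4 times. Tet1, the 5-methylcytosine dioxygenase, stood at 5.80 times with a median of 335 CPM, 30 cells at 1000 CPM or more and 2 highest cells at 5645 and 4315 CPM. The replication helicase gene Mcm4 was at 6.14 times and the transferrin receptor gene Tfrc at 6.60 times. Tm9sf2, Dnm1l, Surf4, Mdm4, Stt3a, Gtf2e1, Cd164 and Polr2b filled the other places among the 15.

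Against these, Pim2 had 6.49 times the typical spread, Dnmt3b 4.27 times, Spp1 3.46 times, Id1 1.33 times and Dnmt3l 1.29 times. Dnmt3b and Pim2 were thus much more uneven than genes of their level, and Id1 and Dnmt3l only slightly.

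At the other end, 6 of the 10 steadiest genes at 100 CPM or more were pseudogenes, Rps2-ps13, Rps6-ps4, Dynlt1-ps1, Rpl34-ps1, Rps10-ps2 and Rpsa-ps10. Rps2-ps13 had 0.0349 times the typical spread at a mean of 118 CPM. A pseudogene shares bases with its parent gene, and whether its reads come from that parent was not tested. The other 4 were the ribosomal protein genes Rpl17, Rpl35a and Rpl34, at 0.0913 to 0.102 times, and Lsm5, a subunit of the U6 snRNA-binding ring, at 0.100 times. Lsm5 had a read in all 93 cells at a mean of 107 CPM.

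Among the 200 steadiest of 2149 genes at 100 CPM or more, 37 were pseudogenes (18.5%) and 30 were ribosomal protein genes, against 43 pseudogenes (2.00%) and 78 ribosomal protein genes over all 2149. Their median exon length was 1545 bases, against 3705 bases over all. The 200 widest of the 6243 genes had a median of 6393 exon bases, against 4227 over all 6243, with 2 pseudogenes and no ribosomal protein gene. Steady genes were thus shorter, and wide genes longer, than those they were ranked among. Coding genes outside the ribosome with little spread were Atp5g2, Psmb5, Cox7a2, Usmg5, Sf3b5, H3f3a, Hmgb1 and Dctpp1, among them subunits of the ATP synthase (Atp5g2), the proteasome (Psmb5) and the respiratory chain (Cox7a2) and a histone (H3f3a).

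**Figure D3:**
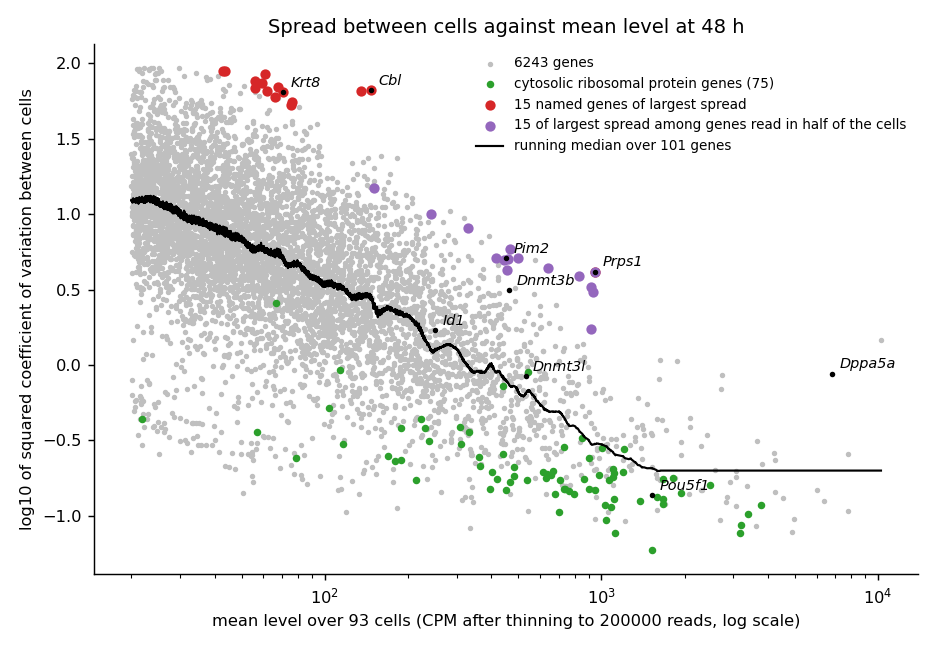
Log10 of the squared coefficient of variation between 93 cells against the mean CPM (log scale) of 6243 genes, after thinning to 200000 reads. Grey points are genes, green points cytosolic ribosomal protein genes, red and purple points the 15 widest of all genes and of genes read in at least 50% of cells, and the line is the running median. Cbl lies 24.6 times and Prps1 13.9 times above the line, and Pou5f1 lies below it.

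Many genes were read in few cells at a high level. After thinning, 4102 genes had a read in 3 to 9 of the 93 cells, and 1438 of them had a median of at least 50 CPM in the cells with a read, of which 1345 were protein-coding and 14 reached 500 CPM. Serpinb9b, a serine protease inhibitor, led with 5 cells at a median of 1405 CPM and a highest value of 1865 CPM. Stard9, a mitotic kinesin, was read in 5 cells at a median of 735 CPM. Zfyve26, a protein of lysosome and autophagy function, was read in 6 cells at a median of 557.5 CPM. Lipa, lysosomal acid lipase, was read in 5 cells at a median of 560 CPM.

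Heg1 had 1020 and 630 CPM in 2 cells and 5 CPM in the third, and Ehd2 had 1145 and 555 CPM in 2 cells and 5 CPM in the third. Klhl28, Rsg1, Man2b2 and Zfp882 completed the first 10 at medians of 535 to 590 CPM. Each of these genes thus rested on 3 to 6 cells, and Heg1 and Ehd2 on 2 of them.

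Cells held 16 to 182 of the 1438 genes each, with a median of 85, and this number followed detected genes with a rho of 0.87 over 93 cells. Wells C12, D12, E12, F12, G12 and H12 held 179, 182, 112, 181, 142 and 124 of them in turn, all above the median. These 6 wells made up at least 50% of the cells for 26 of the 1438 genes. That is a share of genes and cannot be set against their 6.45% share of cells. Few of these genes shared their cells. Of 1033203 pairs, 75 had at least 3 cells in common that made up at least 50% of the cells in which either was read. Hpn and Igfbp4 shared 4 cells of the 6 and 4 in which each was read, and Irf9 and Fam46b shared 4 cells of 4 and 6.

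Genes that varied together were sought among 4169 genes read in at least 30% of cells at a mean of at least 20 CPM. Over their 8688196 pairs the median of Spearman's rho was 0.0190, with the 1st percentile at -0.225 and the 99th at 0.267. The cells share 1 plate and differ in detected genes, so each value below is a description over 93 cells. The rankings of highest and lowest pairs left out pairs within the mitochondrial genes, pairs within the ribosomal protein genes and genes without an established symbol. The 10 highest ranked pairs were all of genes with nearly the same sequence. They were led by Eno1 and Eno1b at 0.94, Vcp and Vcp-rs at 0.94 and Impdh2 and Impdh2-ps at 0.93. Also among them were Rab11b, Gpx4, Vdac3, Pcna, Tdgf1 and Hspd1, each with its own pseudogene, and Psme2 with Psme2b, at 0.89 to 0.93. The members of such a pair share runs of at least 50 transcript bases, so their reads could be split between them and neither value is certain. Of the 200 highest of all pairs, with none left out, 120 shared such runs.

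Pairs of coding genes with no run of 50 shared bases were then ranked, with the same pairs left out and after the values were seen. The metallothioneins Mt1 and Mt2 stood first of these with a rho of 0.79. Metallothioneins bind zinc and copper and are induced by metals. Their starts lie 6418 bases apart on chr8 (GRCm38), with Mt1 at chr8:94179082-94180327 and Mt2 at chr8:94172664-94173568. Both were read in 85 cells after thinning, Mt1 alone in 4, Mt2 alone in 1 and neither in 3. Mt1 had a median of 285 CPM after thinning and a highest value of 4805 CPM in well A04, where Mt2 too was highest, at 830 CPM against a median of 65 CPM. The rho was 0.83 in plate columns 1 to 6 and 0.62 in columns 7 to 12.

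Upstream windows of this pair are shown because both genes are known to be driven by metal response elements. The sequences are the 250 bases upstream of the start in RefSeq (GRCm38.p6), Mt1 at chr8:94178839-94179088 and Mt2 at chr8:94172368-94172617, both on the plus strand, with matches to TGCNCNC on either strand in capitals.
Mt1: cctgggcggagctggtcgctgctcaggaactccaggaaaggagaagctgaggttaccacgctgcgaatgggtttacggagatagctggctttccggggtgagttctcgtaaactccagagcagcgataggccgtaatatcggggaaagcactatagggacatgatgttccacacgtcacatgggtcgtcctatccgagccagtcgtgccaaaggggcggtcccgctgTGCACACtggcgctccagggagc
Mt2: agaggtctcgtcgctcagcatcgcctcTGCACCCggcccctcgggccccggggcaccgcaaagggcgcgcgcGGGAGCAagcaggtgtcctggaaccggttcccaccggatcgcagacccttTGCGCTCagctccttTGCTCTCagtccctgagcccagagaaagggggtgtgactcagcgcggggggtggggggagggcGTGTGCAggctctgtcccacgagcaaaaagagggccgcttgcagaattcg
Mt1 holds 1 match in this window and Mt2 holds 5, of which 3 are on the plus strand. Of 32536 distinct upstream windows of the same length, 44.7% hold at least 1 match and 1.29% hold 4 or more. A match is a description of letters and not a site.

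The second pair was Id1 and Id3 at 0.64, and Id2 went with both, at 0.54 with either. The 3 genes are targets of BMP signalling and encode inhibitors of the same kind. After thinning, 38 cells had reads of all 3 genes, 23 of 2 genes, 15 of 1 gene and 17 of none. Id3 had a median of 55.7 CPM over all reads and a highest value of 1615 CPM, and Id2 a median of 3.18 CPM and a highest value of 1772 CPM. Each Id gene thus ranged over cells from 0 to more than 1000 CPM.

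The relation of the Id genes differed between the plate sides. In columns 1 to 6 the rho was 0.78 for Id1 with Id3, 0.79 for Id1 with Id2 and 0.79 for Id2 with Id3. In columns 7 to 12 it was 0.49, 0.23 and 0.28. The difference between the sides was not tested. Without wells C12 to H12 the rho over 87 cells was 0.68 for Id1 with Id3 and 0.58 for Id1 with Id2. The other BMP-list genes stayed under a mean of 20 CPM, so the list is these 3 genes.

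The upstream sequences of Id3 and Id2 are shown because these genes moved together, Id3 at chr4:136143572-136143821 on the plus strand and Id2 at chr12:25096093-25096342 on the minus strand (RefSeq, GRCm38.p6, 250 bases, 5′ to 3′), with matches to GGCGCC, the core that SMAD1 binds in BMP-responsive elements, in capitals.
Id3: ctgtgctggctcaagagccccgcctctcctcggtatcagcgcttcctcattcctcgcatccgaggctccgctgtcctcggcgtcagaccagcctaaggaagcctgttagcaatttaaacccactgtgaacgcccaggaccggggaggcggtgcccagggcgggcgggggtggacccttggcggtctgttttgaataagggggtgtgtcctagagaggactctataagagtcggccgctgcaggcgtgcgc
Id2: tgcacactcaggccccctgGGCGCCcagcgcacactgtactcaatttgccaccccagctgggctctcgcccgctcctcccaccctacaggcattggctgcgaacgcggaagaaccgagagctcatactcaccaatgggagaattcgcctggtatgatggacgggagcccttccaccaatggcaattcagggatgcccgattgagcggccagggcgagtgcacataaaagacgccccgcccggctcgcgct
The motif reads the same on both strands. It occurs 1 time in the Id2 window and 0 times in that of Id3, and 9.65% of the 32536 windows hold it. The absence says only that these letters are not in this window.

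Of the 20 highest ranked pairs without shared bases, 17 others joined ribosomal protein genes with other highly expressed genes, or such genes with each other. Mif, a cytokine, went with Rps14 at 0.62, Elob, a subunit of the elongin complex, with Rpl37 at 0.62, and the respiratory chain subunit Cox4i1 with Rpl26 at 0.61. Fau, which encodes a fusion of a ubiquitin-like protein and a ribosomal protein, went with Rpl26 at 0.62. The remaining pair was Dppa5a with Tmsb10, an actin-sequestering thymosin, at 0.59. All 20 stayed above the 99th percentile of their own setting in each of the alternatives run.

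**Figure D4:**
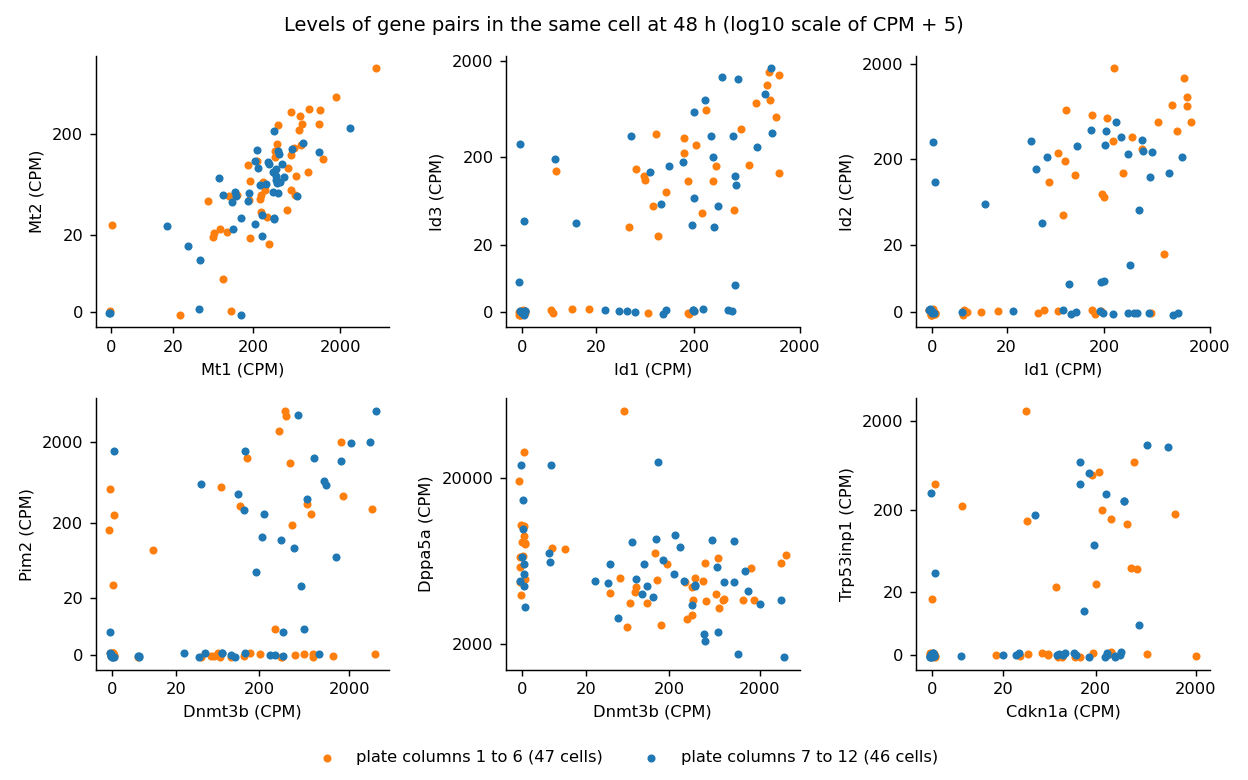
CPM of 6 gene pairs in the same cell (1 draw of 200000 reads, log10 scale of CPM + 5 on both axes) over 93 cells at 48 h, with plate columns 1 to 6 in orange and 7 to 12 in blue. Mt1 and Mt2 lie along a diagonal with a rho of 0.79, Id1 and Id3 along a looser one with 0.64, and Dnmt3b falls as Dppa5a rises, with -0.46.

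Levels of Dnmt3b and Pim2 went together over the cells, with exceptions among the highest. After thinning, the cell with most Pim2 (A08, 4780 CPM) held 3815 CPM of Dnmt3b. The cell with most Dnmt3b (F01, 4040 CPM) had no Pim2 read. The rho of the 2 genes was 0.44 over 93 cells, the highest of any gene with Dnmt3b. It was 0.36 without wells C12 to H12, 0.27 in columns 1 to 6 and 0.56 in columns 7 to 12. With detected genes held fixed it was 0.39. After thinning, 37 cells had reads of both, 33 of Dnmt3b alone, 6 of Pim2 alone and 17 of neither. Pim2 was thus read in 6 of the 23 cells without a Dnmt3b read (26.1%) and in 37 of the 70 with one (52.9%). The next genes with Dnmt3b were Mcrs1 at 0.38, Mlx, the partner of the Mondo glucose sensors, at 0.37, the spectrin Sptan1 at 0.37 and Wdr46 at 0.37. Without wells C12 to H12, Mcrs1 stood at 0.35, Mlx at 0.33 and Wdr46 at 0.32, and Sptan1 fell below the limits. Closest to Pim2 was the mitochondrial import receptor Tomm70a at 0.45, with Dnmt3b next, followed by the cochaperone Sugt1 at 0.44, the chromatin remodeller Bptf at 0.43 and the isocitrate dehydrogenase subunit Idh3a at 0.41.

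Dnmt3b was lower in cells with more Dppa5a. The rho was -0.46 over 93 cells, -0.43 without wells C12 to H12, -0.51 in columns 1 to 6 and -0.43 in columns 7 to 12. It was -0.42 without wells B05, B12 and D04 and -0.45 without E11. In the 23 cells without a Dnmt3b read after thinning, median Dppa5a was 6810 CPM, against 4527.5 CPM in the other 70, and median Spp1 was 3265 against 1927.5 CPM. Without B05, B12, D04 and E11 the medians were 6660 CPM in 20 cells against 4525 CPM in 69 for Dppa5a, and 3220 against 1900.0 CPM for Spp1. Spp1 with Dnmt3b stood at -0.39. Median Zfp42 was 1010 against 1202.5 CPM in the same cells. CPM sum to a constant in each cell and Dppa5a took up to 13.9% of the per-length total, and the part of this in the relation was not tested.

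Dnmt3l varied largely apart from Dnmt3b, with a rho of 0.11. Its closest genes were Tex19.1, a germline gene controlled by DNA methylation, at 0.41, the cap-binding subunit Ncbp1 at 0.38, the initiation factor subunit Eif3d at 0.37, and Rpl7a and the mitochondrial thioredoxin Txn2 at 0.35. It too fell against Dppa5a, at -0.35. After the Id genes, Id1 was closest to the splicing factor Srsf7 at 0.35, Actb at 0.32 and the receptor phosphatase Ptprf at 0.31. Between the 4 marker genes the median rho was 0.21, and only Dnmt3b with Pim2 passed the 99th percentile of all pairs.

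Dppa5a itself went, after Tmsb10, with the glutathione peroxidase Gpx4 at 0.54, the complex I subunit Ndufa7 at 0.51 (0.46 with detected genes held fixed), the ubiquitin gene Ubb at 0.51 and the ferritin light chain Ftl1 at 0.48. It ran against the replication gene Mcm5 at -0.44 and Dppa2 at -0.43. Spp1 with Nanog stood at 0.35 and Nanog with Zfp42 at 0.30, both past the 99th percentile of all pairs.

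The most negative of the ranked pairs were Sec61g and Myc at -0.52, Mybl2 and Nme1 at -0.51, Rps12 and Psmd12 at -0.49, Sccpdh and Ifitm1 at -0.47 and Fam32a and Rps2 at -0.47. Sec61g is a subunit of the protein translocon, and Mybl2 is a cell-cycle transcription factor. Myc was read in 31 of 93 cells after thinning, close to the 30% limit, so its value rests on few cells.

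Gene lists differed in how far their members moved together. Over all pairs 1.00% lie past the 99th percentile, which is the background of the counts below. Of the 2926 pairs of 77 genes from a fixed list of cytosolic ribosomal proteins, 59.9% did, with a median rho of 0.31. Their spread was also small, with a median of -0.44 on the log10 scale of the squared coefficient of variation against the running median, against 0.00046 over all genes. Ribosomal protein genes thus moved together over a narrow range. They fell with detected genes, at a median rho of -0.17 against 0.14 over all genes.

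Of 190 pairs of 20 G2 and mitosis genes, 23 (12.1%) passed, with a median rho of 0.16. Ube2c, a ubiquitin-conjugating enzyme of mitotic exit, and the spindle protein Nusap1 stood at 0.51, Ube2c with cyclin Ccnb1 at 0.41, and Aurora kinase Aurka with Nusap1 at 0.40. With detected genes held fixed the median of the list was 0.090, and these genes had a median rho of 0.27 with detected genes. Ccnb1 ranged from 0 to 2910 CPM with a median of 644 CPM. Of 171 pairs of 19 S phase genes, 3 (1.75%) passed, with a median rho of 0.070. With detected genes held fixed the S phase median was 0.066, so the mitotic and S phase lists stood closer on that basis, and their difference was not tested.

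Of 45 pairs of 10 p53 target genes, 6 (13.3%) passed. Cdkn1a, the cell-cycle inhibitor p21, and Trp53inp1 stood at 0.39 over 93 cells, 0.40 in columns 1 to 6 and 0.38 in columns 7 to 12. Both were read in 26 cells after thinning, Cdkn1a alone in 33, Trp53inp1 alone in 4 and neither in 30. Trp53inp1 with Phlda3 stood at 0.37, with 0.53 in columns 1 to 6 and 0.18 in columns 7 to 12. The median over the list was 0.076, so the relation was one of a few members.

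Of 105 pairs of 15 glycolysis and hypoxia genes, 13 (12.4%) passed, with a median rho of 0.12. Pyruvate kinase Pkm and triose phosphate isomerase Tpi1 stood at 0.44, Tpi1 with Gpi1 at 0.39 and Pgk1 with Tpi1 at 0.39. Of 66 pairs of 12 cholesterol synthesis genes, 6 (9.09%) passed, with Fdft1 and Cyp51 at 0.37 and Mvd and Srebf2, the transcription factor of the pathway, at 0.35. Of 36 pairs of 9 genes of ATF4 and amino acid stress, 3 (8.33%) passed, with the serine synthesis genes Psat1 and Phgdh at 0.31. With detected genes held fixed, the median rho was 0.12 for glycolysis and hypoxia and 0.10 for cholesterol synthesis, but 0.03 against 0.07 for ATF4 and amino acid stress, whose genes went with detected genes at a median rho of 0.23. Of 21 pairs of 7 mitochondrially encoded genes 3 (14.3%) passed, with a median rho of 0.13, and of 28 pairs of 8 heat shock genes 3 (10.7%), with a median of 0.07. Of these 3, Hspe1 with Hspd1 share 50 bases or more, and 2 remained without this pair. Each of these lists was thus above the background of 1.00% with a minority of its pairs.

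The 11 core pluripotency genes in the correlations had a median rho of 0.039 with 0 of 55 pairs past the 99th percentile, and the 11 naive genes 0.046 with 2 of 55. Nodal genes had a median of 0.003, antioxidant genes of -0.011 and imprinted genes of -0.00035, against 0.0190 over all pairs. Of their pairs, 1 of 15 (6.67%), 4 of 78 (5.13%) and 0 of 28 passed the 99th percentile. The 1 Nodal pair was Lefty1 with Lefty2, which share 50 bases or more, so that 0 remained without such pairs. Ftl1 and Fth1, the ferritin chains, stood at 0.46 all the same. The naive pairs that passed were thus 3.64%, against 1.00% over all pairs.

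**Figure D5:**
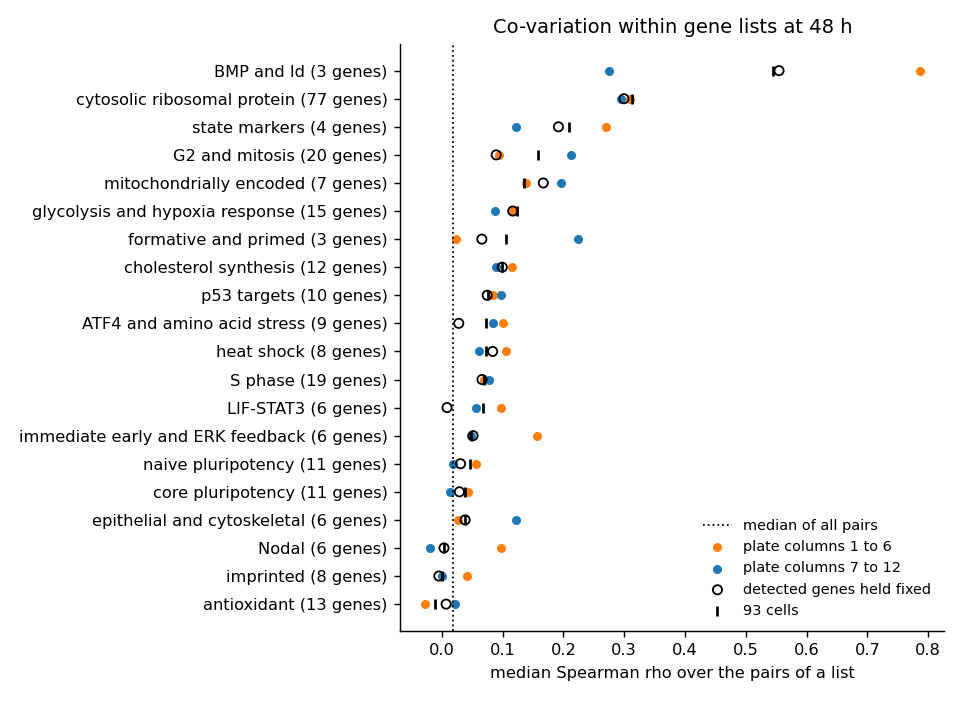
Median of Spearman's rho over the pairs of each gene list (ticks, 93 cells), in plate columns 1 to 6 (orange), in columns 7 to 12 (blue) and with detected genes held fixed (open circles). The dotted line is the median of all pairs, 0.0190. BMP and Id (0.54) and ribosomal protein genes (0.31) lie highest of the lists plotted, which have at least 3 pairs each, and core pluripotency genes (0.039) near the line.

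Detected genes themselves went with members of some gene classes. Of the 4169 genes, 414 had a rho of at least 0.3 with the number of detected genes and 57 of -0.3 or lower. The 57 held 15 of the 83 genes with symbols of ribosomal proteins and 16 of the 80 with symbols starting Nduf, Cox, Uqcr or Atp5 (respiratory chain and ATP synthase) in the correlations. Cox7c stood lowest of those named, at -0.50, with Rps14 at -0.46, while Ubap2, a ubiquitin-binding protein, stood at 0.52, the remodeller Chd1 at 0.50 and cyclin Ccna2 at 0.50. Cells with more genes read thus tended to have less of these 57 genes, which held a minority of either class.

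Well E11 differed from the other 92 cells in which genes it held. It had 1037159 reads and 3988 genes with a read. Its median correlation with the other cells was 0.31, the lowest of the 93, with D04 next at 0.35 and a median of 0.44 over all. In 1 draw of 200000 reads it had Krt8 at 5600 CPM against at most 360 CPM in any other cell, Krt18 at 3160 against 190 CPM and Krt7 at 945 against 125 CPM, 3 keratins of simple epithelia. The Nodal antagonist Lefty2 was at 6275 against 1490 CPM, the glucose transporter Slc2a3 at 6075 against 2020 CPM, the brain-type creatine kinase Ckb at 5325 against 1000 CPM and the tight junction protein Cldn4 at 2015 against 565 CPM. The long noncoding RNA Neat1 was at 2895 against 175 CPM. These genes were picked after their values were seen. On the list of 13 epithelial and cytoskeletal genes, E11 was the highest cell for 4 (Krt8, Krt18, Krt19 and S100a6) and had no read of 4, among them Epcam.

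E11 had 0 thinned reads of Pou5f1, Sox2, Tdgf1, Dnmt3b, Dnmt3l, Pim2, Dppa2, Dppa4 and Epcam. It held Nanog at 20 CPM, Zfp42 at 10 CPM, Dppa5a at 23240 CPM and Id1 at 535 CPM, so reads of pluripotency genes were present but few of those that define the state. Of 1098 genes with a median of at least 100 CPM in the other cells, 257 had no read in E11, against 15 to 484 with a median of 72.5 in the others. The number of genes at 200 CPM or more and over 2 times any other cell was 103 in E11, 104 in D04 and 27 at the median. A cell with many missing or single genes was therefore not unique to E11. Of the 447 genes frequent at 0 h it had a read of 10.7%. Of the 6 trophectoderm genes, Krt7 (above) and Tfap2c had reads in E11, Tfap2c at 330 CPM against 250 CPM in the next cell, and Cdx2, Elf5, Gata3 and Hand1 were at 0 after thinning. It is given no cell type name, since 1 cell has no replicate.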

How the data were processed

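The authors aligned the RNA reads of scNMT-seq and deposited raw counts of reads per gene for 288 wells, not normalized, in reads and not molecules. The submitters' processing notes name HISAT2 and GRCm38, and the counting tool and annotation are not given in the sources used here. The sample descriptions name a filtered, normalized table, but the values are whole numbers and the table includes wells below the limits.

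Cells labelled D2 were kept by the filter of the study, with the mitochondrial limit of 0.15, printed there as a percent, read as a fraction. Over the 3 labels 233 cells passed, which is not the number of cells the study states, and the cause was not tested. Depth was 491549 to 9812323 reads per cell. CPM were computed here from the total of each cell. For spread, detection and correlation each cell was thinned to 200000 reads. Spread is the mean of 10 draws, and single values come from 1 draw. Levels of different genes were compared per kilobase of exon (GENCODE M21, which may not be the annotation of the authors, 51829 genes matched with 98.8% of reads). Shares have exact Clopper-Pearson 95% intervals, which like the limit for a count of 0 (3 counts) cover counting error only, and amplified reads are not independent molecules. Upstream sequences came from RefSeq, which gave a window for Mt1, Mt2, Id2 and Id3.

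Named genes were the 4 markers, the 15 most abundant coding genes and the first 5 each of the mitochondrial and ribosomal classes, the 15 widest and 10 steadiest genes, the first 10 genes read in few cells, the 10 highest and 5 lowest pairs, the 5 genes closest to each marker and members of gene lists. Genes without an established symbol were counted and not named. E11 and its genes, the partners of Dppa5a and Spp1, genes going with detected genes, few-cell pairs, pairs within lists and the split of cells by Dnmt3b were named after their values were seen. The cells, rules and lists were chosen with earlier results of these data known. Alternatives were other filters on cells, other thinning, detection limits, trend windows, Pearson's correlation of log2(CPM + 10), detected genes as a covariate, edgeR TMM factors and each side of the plate. Python 3.11.15, numpy 2.4.6, pandas 2.3.3, scipy 1.17.1, R 4.3.3 and edgeR 4.0.16 were used, and the ranking scripts were checked on simulated counts.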

Additional observations from a re-analysis of the deposited data

How the results depend on the processing

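Of 71 comparisons of the counts, overlaps and marker values with an alternative, 61 were labelled as unchanged and 10 as moved. For counts and overlaps, unchanged means within 1.5 times the value given. For marker values it means within the exact interval of a share, or within the SD between cells around a mean. That SD is wide (464 ± 818 CPM for Dnmt3b, 452 ± 1019 CPM for Pim2 at 48 h), so the rule is loose for means. Counts, shares and means cannot change sign, so no reversal was possible among them. Of 427 correlations 402 stayed within 0.1 on the rho scale. With the mitochondrial limit read as 0.15 percent 1 cell was kept of 93. Of the 15 widest genes, 7 were among the 15 widest in plate columns 1 to 6, 6 in columns 7 to 12 and 1 when only genes read in at least 50% of cells were ranked. The 1438 genes read in few cells became 685 without thinning, 3026 with at least 5 reads counted as a read, 744 with 3 to 5 cells and 2537 with 3 to 18 cells, so this count depends on its limits. Of the 10 highest pairs 0 remained when pairs that share 50 bases were left out. Pim2 had a read in 46.2% of cells after thinning and in 58.1% with all reads. Over the settings the rho ranged from 0.62 to 0.83 for Mt1 with Mt2, from 0.49 to 0.78 for Id1 with Id3, from 0.23 to 0.79 for Id1 with Id2, from 0.27 to 0.56 for Dnmt3b with Pim2 and from -0.51 to -0.42 for Dnmt3b with Dppa5a. Leaving out wells C12 to H12, leaving out E11, leaving out B05, B12 and D04 (also with E11), leaving out pairs that share bases and ranking genes read in at least 50% of cells were chosen after seeing the data. No paired analysis was possible because the labels name no separate cultures or plates within 48 h.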

Other observations

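Imprinted genes, which are expressed from 1 parental copy, had reads for 15 of the 17 listed, with H19 and Igf2 listed at 0 in all 93 cells. Snrpn, a splicing protein gene expressed from the paternal copy, had a read in 91 cells at a median of 436 CPM and a highest value of 2964 CPM. The other genes were uneven. The noncoding RNA Rian had a read in 60 cells with a median of 12.4 CPM and a highest value of 4363 CPM, Meg3 from the same locus in 69 cells with a highest value of 1391 CPM, and Impact in 65 cells with a median of 12.2 CPM and a highest value of 3665 CPM. Peg3 was read in 38 cells at up to 1122 CPM.

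Germline genes that are known to be held silent by DNA methylation were read in part of the cells. Tex19.1 had a read in 77 cells with a median of 202 CPM and a highest value of 2435 CPM, and Rhox5 in 71 cells with a median of 184 CPM and a highest value of 908 CPM. Dazl, an RNA-binding protein gene of germ cells, had a read in 15 cells at up to 458 CPM, and Ddx4 in 9 cells at up to 497 CPM. These genes thus fell into 2 frequent ones and others that were read in few cells.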
